A study of Mus musculus with 24 samples.

Results

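RNA from 2 astrocyte lines of one male mouse culture was compared over all genes: a line carrying p53 Y202C and a line carrying p53 R172H, both at similar Trp53 mRNA. The 2 lines were also picked because they differed in tumor formation in the paper. The rule took the 3 libraries of each line, 6 of the 24 libraries of the series, and kept every gene of the count table, 14427 in all. Both lines descended from cortical astrocytes of male pups, of strain C57BL/6 by the labels, taken on postnatal day 1, with 1 floxed and 1 deleted Trp53 allele, and pups of the same sex were pooled. The methods name the parent strains as B6.129S2-Trp53tm1Tyj/J and B6.129P2-Trp53tm1Brn/J. A retrovirus supplied mutant Trp53 cDNA with an IRES and eGFP, eGFP-positive cells were sorted, and a lentivirus carrying Cre and puromycin resistance then removed the floxed allele, so that both lines lacked endogenous p53 and both were puromycin-selected. The labels give passages 10 to 15 for all lines. A matched p53 knockout (KO) line of the same male culture received Cre without mutant p53, and its values are set beside those of the mutants as the background. The other lines of the series were male p53 Y217C and the same 4 genotypes in a female culture.

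Several features limit these lines as a model. Each genotype and sex was represented by 1 line from 1 pooled culture, the mutant protein came from a viral promoter, and the 3 replicates of a line were separate thaws and platings of that line according to the methods. The spread between replicates therefore measured variation within a line, and a difference due to the mutation cannot be told apart from a difference that arose between the 2 lines during sorting, selection or passage.

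p53 is a transcription factor that halts the cell cycle, directs DNA repair and triggers apoptosis after damage, in large part by activating genes such as Cdkn1a and Mdm2. Missense mutations of its DNA-binding domain usually abolish that activity, and some mutant proteins alter the expression of other genes through partner transcription factors. R172H, the mouse form of a common human hotspot, disturbs the fold of the domain near its zinc ion, and Y202C also lies within the DNA-binding domain. Cortical astrocytes arise from forebrain progenitors, carry transcription factors such as Sox2, Sox9 and Nfia, and in culture with serum often lose mature markers.

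The 3 p53 Y202C libraries held 66162441 to 101576797 counts and the 3 p53 R172H libraries 79267980 to 106463163 counts, within the range of 52787288 to 136503809 over the series. No replicate pair was a repeat deposit, since the chi-square of their counts over genes was 17 to 59.2 times its degrees of freedom. The 10 most abundant genes took 5.77% to 5.95% of counts in p53 Y202C and 8.08% to 8.71% in p53 R172H. Values below are CPM, that is counts per 1000000 counts of the library with TMM factors, and log2 fold changes are p53 Y202C over p53 R172H from edgeR's quasi-likelihood test with Benjamini-Hochberg adjusted p. In all, 10298 genes, 71.4% of those tested, passed an adjusted p of 0.05, of which 5330 (36.9%) were higher in p53 Y202C and 4968 (34.4%) were lower. More than 2-fold changes were found for 1466 genes (10.2%) that were higher and 1510 genes (10.5%) that were lower. The median log2 fold change was 0.0058 over all genes, and the median absolute change of the genes that passed was 0.63. With so large a share of genes past the test, the counts for each gene group below are read against these background shares.

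**Figure D1:**
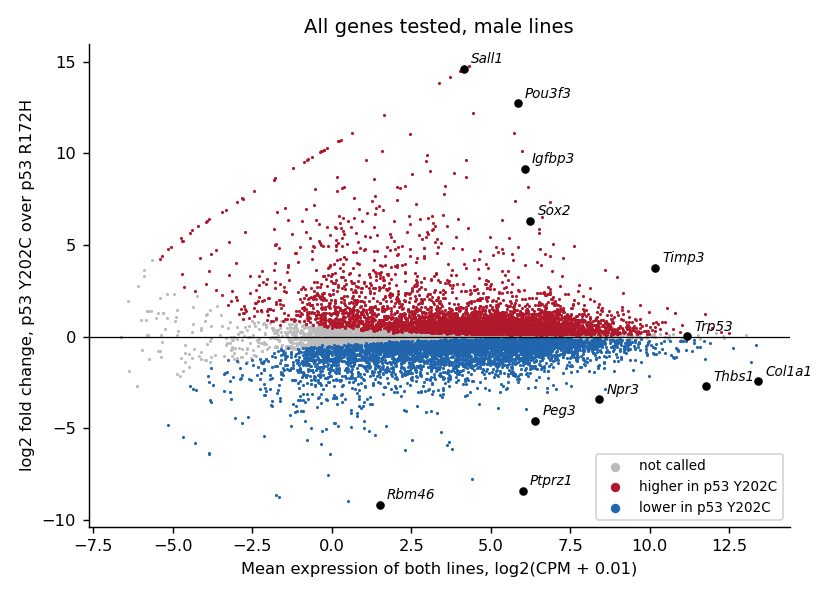
Each point is 1 of the 14427 genes, with mean expression of the 2 lines as log2(CPM + 0.01) on the x axis and log2 fold change of p53 Y202C over p53 R172H on the y axis. Red and blue points passed the test in either direction and grey points did not, and the largest differences, such as Sall1 and Pou3f3, lie on the side of p53 Y202C while Trp53 lies near 0.

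Very large differences were mostly in one direction. A change above 4-fold was found for 610 genes higher and 386 genes lower in p53 Y202C, and a change above 16-fold for 231 genes higher and 54 lower. At the extreme, 29 genes had at most 3 counts in each p53 R172H library and at least 100 counts in each p53 Y202C library, and 5 genes showed the reverse.

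Trp53 is given first and without a test, since the 2 lines were paired for similar Trp53 mRNA. It was at 2444, 2268 and 2259 CPM in p53 Y202C and at 2315, 2196 and 2349 CPM in p53 R172H. The 2 sets of values overlapped. The means were 2324 ± 104 and 2287 ± 80.2 CPM (SD, n = 3), a 1.02-fold ratio (log2 fold change 0.02), and the sign of this small value turned with the scaling factors. The gene (chr11:69580359-69591873, plus strand, GRCm38) read 53.7, 50.7 and 48.2 CPM in the KO line. Reads of the viral cDNA and of any residual endogenous transcript were counted together.

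Known regulators of p53 differed modestly between the lines. Of 26 genes listed as Trp53 family members and regulators, Trp53 among them, 25 were in the table and none changed by more than 2-fold. Of these, 11 (44.0%) were higher and 8 (32.0%) lower, beside 36.9% and 34.4% of all genes. The list median of 0.02 was the value of Trp53 itself, for which the lines were paired, and so does not describe its regulators. Mdm2, the ubiquitin ligase that targets p53 for degradation and is itself a p53 target, was at 81.7, 86.9 and 91.4 CPM in p53 Y202C and at 64.4, 61.1 and 64.3 CPM in p53 R172H. It rose 1.37-fold (adjusted p = 5.01e-07), and the KO mean of 66.4 CPM lay near p53 R172H. Rchy1, another ubiquitin ligase acting on p53, was higher (log2 fold change 0.85 ± 0.05 SE), and the chaperone gene Hspa8 and the checkpoint kinase gene Chek1 were lower, by −0.65 and −0.83. Trp63, a relative of Trp53, had 0.767 CPM against 0.391 CPM (adjusted p = 0.0235), a call that was lost without p53 Y202C replicate 3, p53 R172H replicate 1 or p53 R172H replicate 3, at adjusted p of 0.0791, 0.0825 and 0.125.

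Listed p53 target genes did not move in one direction. Of 40 targets, all in the table, 18 were higher and 13 were lower in p53 Y202C, 9 and 5 of them by more than 2-fold. The shares of 45.0% and 32.5% compare with 36.9% and 34.4% of all genes, and the median was 0.09. The stress cytokine gene Gdf15 was at 25.4, 20.1 and 18.2 CPM in p53 Y202C and at 0.639, 0.640 and 0.586 CPM in p53 R172H. No p53 Y202C library came near the p53 R172H range, and the log2 fold change was 5.09 ± 0.27 (SE, adjusted p = 3.22e-14), with the KO line at 0.351 CPM. Ephx1, an epoxide hydrolase gene, rose by 2.49 and Pltp, a phospholipid transfer protein gene that overlaps Ctsa on the other strand, by 2.16 on the log2 scale, while the phosphatase gene Ptprv fell by 5.02 from a low level. The cell cycle inhibitor gene Cdkn1a was at 19.3, 22 and 21.9 CPM in p53 Y202C and at 24.1, 28.6 and 28.9 CPM in p53 R172H. It was 1.29-fold lower in p53 Y202C (adjusted p = 1.63e-04), and the KO line had 20.4 CPM. Genes of the apoptosis arm, Bax and Bbc3, were 1.46-fold and 1.41-fold higher, and Sesn2, a stress-induced gene that restrains growth signalling, was 2.04-fold higher.

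**Figure D2:**
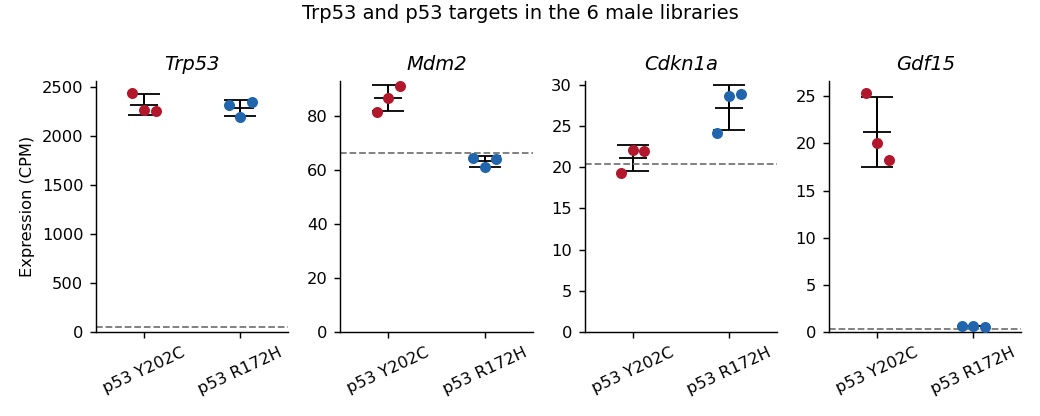
CPM of Trp53, Mdm2, Cdkn1a and Gdf15 in the 3 p53 Y202C (red) and 3 p53 R172H (blue) libraries, with bars at the mean ± SD and a dashed line at the mean of the 3 KO libraries. Trp53 overlaps between the mutant lines and is far above the KO line, while Gdf15 is 18.2 to 25.4 CPM in p53 Y202C and under 1 CPM in p53 R172H.

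Genes of the BCL2 family, which decide whether mitochondria release death signals, were next. The anti-apoptotic gene Bcl2l1, encoding BCL-xL, was at 175, 186 and 169 CPM in p53 Y202C and at 38.2, 34.1 and 37.1 CPM in p53 R172H, a log2 fold change of 2.28 ± 0.06 (SE, adjusted p = 1.51e-19). Bcl2 was 3.16-fold higher and Bid, a pro-apoptotic activator, 2.65-fold higher, whereas Bcl2l11, encoding the death activator BIM, was 2.21-fold lower. Of the 20 listed members, 16 were in the table, 9 were higher (56.2%) and 3 lower (18.8%), with a median of 0.41.

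Forebrain transcription factors were among the genes that differed most between the lines. Pou3f3, a POU-domain factor of the developing cortex, was at 119, 112 and 116 CPM in p53 Y202C and had 2, 2 and 0 counts in the p53 R172H libraries. The ratio of summed counts, scaled for depth, was 7527 with a 95% counting interval of 2939 to 27627, which covers counting error only. Sall1 (chr8:89027235-89044162, minus strand), a zinc finger factor of neural progenitors, was at 34.8, 35.5 and 36.7 CPM in p53 Y202C and had 0 counts in each p53 R172H library, at least 1013-fold higher when the limit is set at 3 counts per library. The same limit put Sall3 at least 741-fold and Pou3f2, another cortical POU factor, at least 591-fold higher.

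Other factors of this kind kept a trace in p53 R172H. Lhx2 (chr2:38339281-38369733, plus strand), a selector of cortical fate, was at 109, 107 and 99.5 CPM in p53 Y202C and at 0.0387, 0.0256 and 0.0764 CPM in p53 R172H. Six3 (chr17:85613608-85629302, plus strand), a factor of the anterior forebrain, was at 120, 124 and 135 CPM against 0.116, 0.102 and 0.115 CPM. Sox2 (chr3:34650405-34652461, plus strand), which maintains neural stem cells, was at 154, 150 and 146 CPM against 1.80, 1.73 and 2.05 CPM. In each case all p53 Y202C libraries stood far above all p53 R172H libraries, with log2 fold changes of 11.11 ± 0.22, 10.13 ± 0.16 and 6.33 ± 0.09 (SE) and adjusted p of 4.09e-22, 3.62e-23 and 5.13e-23. Sox6, Sox21 and Pax6, further neural fate genes, rose by 8.69, 7.45 and 5.70 on the log2 scale. Sox2 lies inside the longer transcript Sox2ot on the same strand, and Six3, Lhx2, Pax6 and Sox6 overlap genes on the opposite strand, so that reads of neighbours could have been assigned to them where counting ignored strand, which the sources used here do not give.

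The KO line was intermediate for these factors, with means of 23 CPM for Pou3f3, 8.07 for Sall1, 3.34 for Lhx2, 20.6 for Six3 and 24.5 for Sox2. For each of the 5, the p53 Y202C mean was above and the p53 R172H mean below that of the KO line. Emx2, a cortical patterning gene, was 4.11-fold higher in p53 Y202C, at 102 ± 5.52 against 24.7 ± 0.870 CPM (SD, n = 3).

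**Figure D3:**
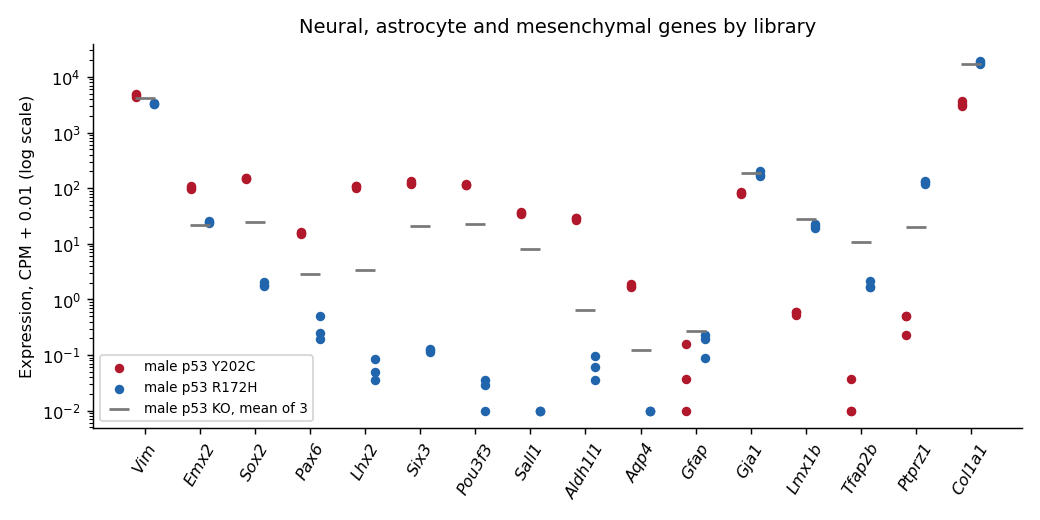
CPM + 0.01 on a log axis for neural, astrocyte and mesenchymal genes in the 3 p53 Y202C (red) and 3 p53 R172H (blue) libraries, with a grey bar at the mean of the 3 KO libraries. Sox2, Pax6, Lhx2, Six3, Pou3f3, Sall1 and Aldh1l1 are high only in p53 Y202C among the 2 mutants, Ptprz1, Lmx1b, Tfap2b and Col1a1 are higher in p53 R172H, and Vim is abundant in both.

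As a group, neural progenitor markers were shifted upward in p53 Y202C, with a median log2 fold change of 0.89. Of 24 listed, 19 were in the table, 13 were higher (68.4%) and 3 lower (15.8%), beside 36.9% and 34.4% of all genes. By more than 2-fold, 9 were higher (47.4%) and 1 lower (5.26%), beside 10.2% and 10.5% of all genes. Their summed level was 8199 to 9177 CPM in p53 Y202C and 5035 to 5419 CPM in p53 R172H, a sum carried by the abundant Vim, an intermediate filament gene at 4645 ± 271 against 3326 ± 96.0 CPM (SD, n = 3). Nes, encoding the progenitor filament nestin, was 1.22-fold higher (adjusted p = 0.0186).

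Astrocyte markers were found in both directions. Of 26 listed, 19 were in the table, 8 (42.1%) were higher and 7 (36.8%) were lower, near the 36.9% and 34.4% of all genes. Their summed level was 706 to 792 CPM in p53 Y202C and 634 to 671 CPM in p53 R172H. Aldh1l1, a folate enzyme widely used to mark astrocytes, was at 29.2, 29.5 and 26.4 CPM in p53 Y202C and at 0.0872, 0.0512 and 0.0255 CPM in p53 R172H (log2 fold change 8.91 ± 0.23 SE, adjusted p = 5.47e-20). Aqp4, the water channel of astrocyte end feet, was at 1.77, 1.64 and 1.91 CPM against 0 counts in each p53 R172H library, at least 50.3-fold higher. The glutamate transporter gene Slc1a2 and Mlc1, a membrane protein gene of end feet, were also higher, both from levels below 3 CPM.

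Other astrocyte markers went the other way or were nearly absent. The gap junction gene Gja1 and the glial factor gene Sox9 were 2.24-fold and 2.08-fold lower in p53 Y202C, at 81.0 against 182 CPM and 80.0 against 166 CPM. Gfap, the classical astrocyte filament gene, reached at most 0.217 CPM in any of the 6 libraries (adjusted p = 0.0902), and S100b at most 0.280 CPM. Gfap was therefore nearly absent by mRNA from both lines labelled as astrocytes, while Sox9, Vim and the glial factor gene Nfia were present in both, Nfia at 53.4 CPM in p53 Y202C.

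Markers of other cell types were examined for the same libraries, and their part in the differences was not tested. Of 17 microglia and macrophage markers only 4 were in the table, and the defining genes Aif1, Cx3cr1, Itgam, Ptprc, Tyrobp and C1qa were not among them. Csf1r, a defining receptor of microglia, was at 0.291 and 0.868 CPM on average, Tmem119 was 3.91-fold lower in p53 Y202C, and the lysosomal gene Cd68 was 7.17-fold higher, with the summed list at 93.8 to 98.7 CPM and 98.9 to 121 CPM. Oligodendrocyte lineage markers summed to 174 to 201 CPM in p53 Y202C and 457 to 478 CPM in p53 R172H, 7 of 16 being in the table with 2 higher and 4 lower, and Olig1, Olig2 and Sox10 not among them. Myrf, a myelin gene regulator, was at 18 ± 1.02 CPM against 126 ± 5.87 CPM (SD, n = 3), and Mbp, encoding myelin basic protein, was 4.90-fold lower. The 2 higher members were Pdgfra, with a log2 fold change of 1.36, and Nkx2-2, with 10, 10 and 8 counts in p53 Y202C and 0, 1 and 0 in p53 R172H. Of 18 neuron markers, 8 were in the table, and Rbfox3, Snap25 and Dcx were not among them. The 8 summed to 499 to 538 CPM and 403 to 434 CPM, with 4 higher and 2 lower. Among them were Stmn2 (13.2-fold higher) and Tubb3 (4.99-fold lower). Of 13 endothelial markers, 8 were in the table, and Pecam1, Cldn5 and Vwf were not among them. The 8 summed to 65.0 to 70.3 CPM and 167 to 191 CPM, with 1 higher (Plvap, log2 fold change 3.43) and 5 lower. Most of both sums was the receptor gene Flt1, among the 5, at 51.5 against 155 CPM.

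Of the cell type lists, the pericyte, smooth muscle and fibroblast list held the largest sums, 12285 to 14552 CPM in p53 Y202C and 36895 to 40366 CPM in p53 R172H. Of 20 members, 17 were in the table, 3 were higher (17.6%) and 11 were lower (64.7%), with a median of −0.59. Col1a1, which encodes the main chain of type I collagen, was at 3759, 3258 and 3067 CPM in p53 Y202C and at 17171, 18625 and 18995 CPM in p53 R172H. It fell by 2.44 on the log2 scale (SE 0.08, adjusted p = 4.62e-18), with no overlap between lines, and the KO mean of 17294 CPM lay with p53 R172H. The smooth muscle genes Tagln and Acta2 were 1.94-fold and 1.48-fold lower, and the pericyte gene Rgs5 was at 1.21 CPM in p53 R172H and 0.0370 CPM in p53 Y202C. Dcn and Lum, fibroblast proteoglycan genes, were instead slightly higher in p53 Y202C, at 4.86 against 2.96 CPM and 0.173 against 0.0704 CPM. In bulk RNA, fewer cells of a type and less RNA per cell cannot be told apart.

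Among genes at 200 CPM or more in the higher line, the largest falls in p53 Y202C were Npr3, a natriuretic peptide clearance receptor gene (log2 fold change −3.4), Cthrc1 (−2.86), Col7a1 (−2.84), Thbs1 (−2.72), Grb10 (−2.68), Igfbp2 (−2.64), Thbs2 (−2.55) and Col1a1. Thbs1, a secreted matrix protein gene that activates latent TGF-beta, was at 1062, 867 and 870 CPM in p53 Y202C and at 5860, 6549 and 5999 CPM in p53 R172H. The KO line had 7164 CPM. Of 43 collagen genes, 34 were in the table, 10 were higher (29.4%) and 19 lower (55.9%). Summed collagen was 17662 to 20713 CPM against 46735 to 51003 CPM. Col8a2, a network collagen gene, was at 8.67, 7.45 and 8.45 CPM in p53 Y202C and at 101, 144 and 142 CPM in p53 R172H. Integrins and laminins had 11 of 28 tested members higher (39.3%) and 13 lower (46.4%), beside 36.9% and 34.4% of all genes. The laminin genes Lama5 and Lama1 were 12.5-fold and 20.9-fold higher in p53 Y202C.

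The proteoglycan gene Fmod and the TGF-beta-induced matrix gene Tgfbi fell, with log2 fold changes of −2.83 and −2.74, and so did the cartilage proteoglycan gene Acan. Of 50 matrix glycoproteins and proteoglycans, 45 were in the table, 11 were higher (24.4%) and 26 lower (57.8%). Timp3, an inhibitor of metalloproteinases held in the matrix, was at 1932, 2231 and 2328 CPM in p53 Y202C and at 145, 171 and 166 CPM in p53 R172H. Its log2 fold change was 3.75 ± 0.09 (SE, adjusted p = 1.76e-20), and the gene overlaps Syn3 on the other strand, which was 4.61-fold higher. Of 45 proteases and inhibitors, 41 were in the table, 12 were higher (29.3%) and 26 lower (63.4%). Mmp3 and Mmp28 were among those higher.

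Among genes at 200 CPM or more in the higher line, Gpm6b, a neural membrane glycoprotein gene, was at 221, 226 and 245 CPM in p53 Y202C and at 1.30, 1.27 and 1.72 CPM in p53 R172H (log2 fold change 7.34 ± 0.17 SE, adjusted p = 4.87e-21). In the same class Cadm1, an adhesion molecule gene, rose by 5.06, the galectin gene Lgals3 by 4.95, the mesothelin gene Msln by 4.40, the metal-binding gene Mt1 by 4.30 and the ion exchanger gene Slc24a3 by 3.61. Cdh13, encoding a cadherin anchored to the membrane by a lipid, was at 138, 151 and 142 CPM against 0.697, 0.448 and 0.331 CPM. The cadherin list had 8 of 33 tested members higher (24.2%), 20 lower (60.6%) and a median of −0.89. Fat4, a giant protocadherin gene, was 8.10-fold lower.

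Mesenchymal transition factors had 8 of 20 tested members higher (40.0%), 6 lower (30.0%) and a median of −0.01. The shares were near the 36.9% and 34.4% of all genes. By more than 2-fold, 5 were higher and 3 lower, so the falls named next do not describe the list. Snai1, a repressor of epithelial genes, was at 20.8, 22.5 and 21.5 CPM in p53 Y202C and at 81.2, 75.2 and 81.0 CPM in p53 R172H, a 3.67-fold fall. Msx2 and Foxc2 were 7.92-fold and 2.65-fold lower. Cdh1, the epithelial cadherin gene, is also in the list and among its rises, at 0.619 against 0.275 CPM (adjusted p = 0.00854). This call was lost when p53 Y202C replicate 2 or p53 R172H replicate 1 was left out, at adjusted p of 0.0555 and 0.0704.

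Genes higher in p53 R172H at the extreme were fewer. Rbm46, an RNA-binding protein gene of germ cells, had 2, 0 and 0 counts in p53 Y202C and 532, 448 and 472 counts in p53 R172H, a ratio of 669 with a counting interval of 185 to 5527. Aass, a lysine degradation enzyme gene, had 1 count in all p53 Y202C libraries together, a ratio of 663 (119 to 26231). Ptprz1, a receptor phosphatase gene of glia, was at 0.220, 0.488 and 0.488 CPM in p53 Y202C and at 127, 137 and 121 CPM in p53 R172H. It fell by 8.40 on the log2 scale (SE 0.16), and its ligand gene Ptn was 7.61-fold lower, at 7.16 against 54.7 CPM. Megf6, Rgs4, Ndn, Scn3a, Xlr3b and Arhgap36 had log2 fold changes of −7.78, −6.21, −6.13, −5.64, −5.38 and −5.17, all past the test.

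Some developmental factors were among these. Tfap2b, a neural crest factor gene, had 2 counts in all p53 Y202C libraries together, a ratio of p53 R172H over p53 Y202C of 220 with a counting interval of 60.5 to 1819. Lmx1b, a limb and midbrain factor gene, was at 0.590, 0.596 and 0.519 CPM against 21.2, 22.3 and 19.6 CPM. Across 78 listed homeobox genes, 35 were in the table, 14 were higher (40.0%) and 17 lower (48.6%), beside 36.9% and 34.4% of all genes. Across 66 forkhead, paired box, T-box and SOX factors, 49 were in the table, 14 were higher (28.6%) and 28 lower (57.1%). The median was −0.62, although the 4 largest differences, Sox6, Sox21, Sox2 and Pax6, were all rises.

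The mRNA of cell cycle genes was lower in p53 Y202C almost throughout. In the paper's growth assay, male p53 Y202C astrocytes outgrew the KO line, while male p53 R172H astrocytes did not. After flank injection in the paper, male p53 Y202C cells formed tumors more often than male p53 R172H cells. Levels of mRNA at harvest are a different measure, and their relation to growth or tumor formation was not tested. Of 49 DNA replication genes, all tested, 41 were lower and 4 higher, 23 were more than 2-fold lower, and the median was −0.83. Of 44 mitosis and spindle checkpoint genes, 38 were lower and 4 higher, 25 were more than 2-fold lower, and the median was −1.05. These shares, 83.7% and 86.4% lower, compare with 34.4% of all genes. Double-strand break and Fanconi repair genes, many of which are expressed in S phase, had 29 of 40 members lower (72.5%), 4 higher (10.0%) and a median of −0.64.

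Rrm2, the S-phase subunit of ribonucleotide reductase, was at 19.8, 16.4 and 16.9 CPM in p53 Y202C and at 107, 83.8 and 101 CPM in p53 R172H, with 127 CPM in the KO line. Cdc6, which loads the replicative helicase at origins, was at 4.72, 4.36 and 4.22 CPM against 22.1, 19.3 and 21.2 CPM. No library of p53 Y202C overlapped p53 R172H, and log2 fold changes were −2.45 ± 0.12 and −2.23 ± 0.12 (SE). Foxm1, the factor that activates many G2 and M genes, was 3.11-fold lower, and Kif20a, Aurkb and Birc5, which act in cytokinesis and chromosome passage, were 3.4-fold, 3.04-fold and 2.94-fold lower. Mki67, the proliferation antigen gene, was at 127, 106 and 152 CPM in p53 Y202C and at 415, 325 and 344 CPM in p53 R172H. The repair genes Exo1, Fancb, Brca1 and Fancd2 were 4.94-fold, 4.40-fold, 3.25-fold and 3.01-fold lower. The KO line lay near p53 R172H for these genes, for instance at 341 CPM for Mki67, 147 CPM for Foxm1 and 34.4 CPM for Brca1.

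Upstream of these genes, the INK4, cyclin D and RB list had 23 of 31 members lower (74.2%) and 3 higher (9.68%), with a median of −0.46. The 3 rises were unlike the rest of the list. Ccnd1, encoding cyclin D1, was at 736, 757 and 696 CPM in p53 Y202C and at 304, 278 and 271 CPM in p53 R172H, 2.57-fold higher (adjusted p = 6.75e-17). Rb1, the brake that cyclin D kinases release, was 2.64-fold higher, and Cdkn2b, an inhibitor of those kinases, 1.32-fold higher. Cdkn2a, which encodes both p16 and p19ARF and was counted as 1 gene, was at 247, 227 and 190 CPM against 336, 370 and 320 CPM. The repressor gene E2f7, the CDK inhibitor gene Cdkn1c, the cyclin E gene Ccne1 and the phosphatase gene Cdc25a fell, with log2 fold changes of −2.26, −2.02, −1.46 and −1.45. Over a list of glioma tumor suppressors and oncogenes, 19 of 46 tested members were higher and 18 lower. These shares, 41.3% and 39.1%, compare with 36.9% and 34.4% of all genes. Tert, encoding the telomerase catalytic subunit, was 3.25-fold lower.

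Promoter sequence was examined for these groups, since many cell cycle promoters carry 1 of 2 short elements: TTTGAA, the core of the cell cycle genes homology region read by complexes that include FOXM1, and TTTCCCGC, a form of the E2F site. Within 250 bases upstream of the start, on either strand, TTTGAA was found in 12 of 36 mitosis genes with a promoter entry (33.3%), against 12.8% of all tested genes and 16% of all promoters. Of the 12, 11 were lower and 1 was higher in p53 Y202C, beside 86.4% lower over the whole list. TTTCCCGC was found in 4 of 40 DNA replication genes (10.0%), against 1.98% of tested genes and 0.895% of promoters. Of the 4, 3 were lower, beside 83.7% lower over the whole list. The following 3 promoters show both elements in genes that fell, with RefSeq sequence (GRCm38.p6) of the 200 bases before the start, 5′ to 3′ on the gene's strand and capitals at the searched element of that gene's list, on whichever strand it was found. They are Espl1 (chr15:102296093-102296292, plus strand), the separase gene, 2.91-fold lower, Mki67 (chr7:135716380-135716579, minus strand), 2.81-fold lower, and Gins3 (chr8:95633359-95633558, plus strand), a helicase subunit gene, 2.27-fold lower. A match describes the letters only.
Espl1: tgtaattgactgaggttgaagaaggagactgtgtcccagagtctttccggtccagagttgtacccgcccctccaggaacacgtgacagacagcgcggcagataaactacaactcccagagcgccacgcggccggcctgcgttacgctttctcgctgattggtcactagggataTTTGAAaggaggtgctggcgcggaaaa
Mki67: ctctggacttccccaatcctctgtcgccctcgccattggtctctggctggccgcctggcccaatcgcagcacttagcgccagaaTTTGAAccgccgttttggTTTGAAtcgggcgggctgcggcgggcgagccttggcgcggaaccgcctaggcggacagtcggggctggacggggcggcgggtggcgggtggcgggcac
Gins3: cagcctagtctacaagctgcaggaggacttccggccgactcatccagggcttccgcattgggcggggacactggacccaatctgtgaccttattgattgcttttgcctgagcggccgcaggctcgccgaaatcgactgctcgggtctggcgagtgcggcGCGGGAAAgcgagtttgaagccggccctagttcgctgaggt

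Espl1 was at 36.7, 28.2 and 28.4 CPM in p53 Y202C and at 101, 81.0 and 89.2 CPM in p53 R172H, and its element begins 27 bases before the start. Mki67 holds the element in 2 places, beginning 116 and 98 bases before the start. Gins3, at 3.92, 3.39 and 3.75 CPM against 8.22, 6.98 and 9.99 CPM, holds the E2F form on the opposite strand, beginning 41 bases before the start.

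Lysosomal genes moved upward as a group. Of 63 listed, 62 were in the table, 45 were higher and 8 lower (72.6% higher, against 36.9% of all genes), 14 were more than 2-fold higher, and the median was 0.64. Summed expression was 12074 to 12856 CPM in p53 Y202C and 6978 to 7866 CPM in p53 R172H. Subunits of the V-ATPase, the proton pump that acidifies lysosomes, led the list. Atp6v1g1 was at 221, 237 and 233 CPM in p53 Y202C and at 52.1, 54.8 and 56.7 CPM in p53 R172H, and Atp6v1b2 and Atp6v0b rose 3.67-fold and 3.29-fold. Neu1, the lysosomal sialidase gene, was 3.28-fold higher. The gene of a regulator of lysosomal biogenesis, Tfeb, was itself 1.27-fold lower (adjusted p = 9.77e-04).

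Of the 36 genes of the ATF4 and unfolded protein response list, 20 were higher (55.6%) and 11 lower (30.6%). By more than 2-fold, 12 were higher and 4 lower, and the median was 0.31. Atf3, a stress-induced factor gene, was at 81.1, 79.8 and 77.5 CPM in p53 Y202C and at 7.06, 8.51 and 8.02 CPM in p53 R172H. Ddit3, encoding CHOP, was at 365, 380 and 345 CPM against 60.5, 67.0 and 65.9 CPM, and Ppp1r15a, which restores translation by reversing eIF2 alpha phosphorylation, at 380, 406 and 380 CPM against 51.5, 57.2 and 55.0 CPM. In none of the 3 genes did the lines overlap, and the KO means of 7.31, 46.6 and 48.3 CPM lay with p53 R172H. Chac1, a glutathione-degrading enzyme gene induced by ATF4, was 2.66-fold higher. Sdf2l1, a chaperone cofactor gene of the endoplasmic reticulum, was among those lower, by 3.85-fold.

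For these lists the searched elements were TCACGTGA, an E-box of the form bound by TFEB and its relatives, and TGATGCAA, the composite site of ATF4 with C/EBP factors. TCACGTGA was found upstream of 7 of 48 lysosomal genes (14.6%), against 1.76% of tested genes and 0.785% of all promoters. Of the 7, 6 were higher and none lower, beside 72.6% higher over the whole list. TGATGCAA was found upstream of 5 of 31 genes of the ATF4 list (16.1%), against 0.641% of tested genes and 0.791% of promoters. All 5, Atf3, Chac1, Slc7a11, Vldlr and Herpud1, were higher, beside 55.6% higher over the whole list. Whether any of the elements bears on direction was not tested. The letters of the 4 searched elements do not contain one another, and TCACGTGA reads the same on both strands. The promoters that follow show the elements in genes that rose, under the same conventions: Ctsa (chr2:164833573-164833772, plus strand), encoding the protective protein of the sialidase complex, 2.33-fold higher, Gla (chrX:134601006-134601205, minus strand), the alpha-galactosidase gene, 2.15-fold higher, and Atf3 (chr1:191183334-191183533, minus strand), 10.1-fold higher. Vldlr (chr19:27216820-27217019, plus strand), a lipoprotein receptor gene and 3.60-fold higher, is the last.
Ctsa: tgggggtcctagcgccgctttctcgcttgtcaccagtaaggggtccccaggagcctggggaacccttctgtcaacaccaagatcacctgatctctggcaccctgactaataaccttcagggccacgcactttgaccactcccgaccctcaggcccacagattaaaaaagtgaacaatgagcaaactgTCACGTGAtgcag
Gla: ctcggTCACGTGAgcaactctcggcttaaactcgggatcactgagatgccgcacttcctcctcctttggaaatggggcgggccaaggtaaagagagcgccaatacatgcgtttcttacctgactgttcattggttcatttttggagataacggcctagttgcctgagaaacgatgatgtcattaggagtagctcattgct
Atf3: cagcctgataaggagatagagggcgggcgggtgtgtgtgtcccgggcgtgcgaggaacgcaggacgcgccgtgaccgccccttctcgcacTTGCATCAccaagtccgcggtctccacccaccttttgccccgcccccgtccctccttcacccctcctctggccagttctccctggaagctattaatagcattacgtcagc
Vldlr: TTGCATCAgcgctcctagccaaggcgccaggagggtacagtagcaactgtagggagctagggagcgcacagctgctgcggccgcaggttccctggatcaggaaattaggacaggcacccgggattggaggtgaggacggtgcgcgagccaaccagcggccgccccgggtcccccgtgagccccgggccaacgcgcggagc

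Ctsa was at 473, 520 and 460 CPM in p53 Y202C and at 193, 216 and 216 CPM in p53 R172H, although it overlaps Pltp and Neurl2 on the other strand. Gla was at 20, 19.6 and 21.6 CPM against 8.60, 9.03 and 10.8 CPM. Vldlr was at 328, 336 and 339 CPM against 84.9, 98.2 and 95.3 CPM. The ATF4 element of Atf3 and Vldlr stands on the opposite strand and reads TTGCATCA there.

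**Figure D4:**
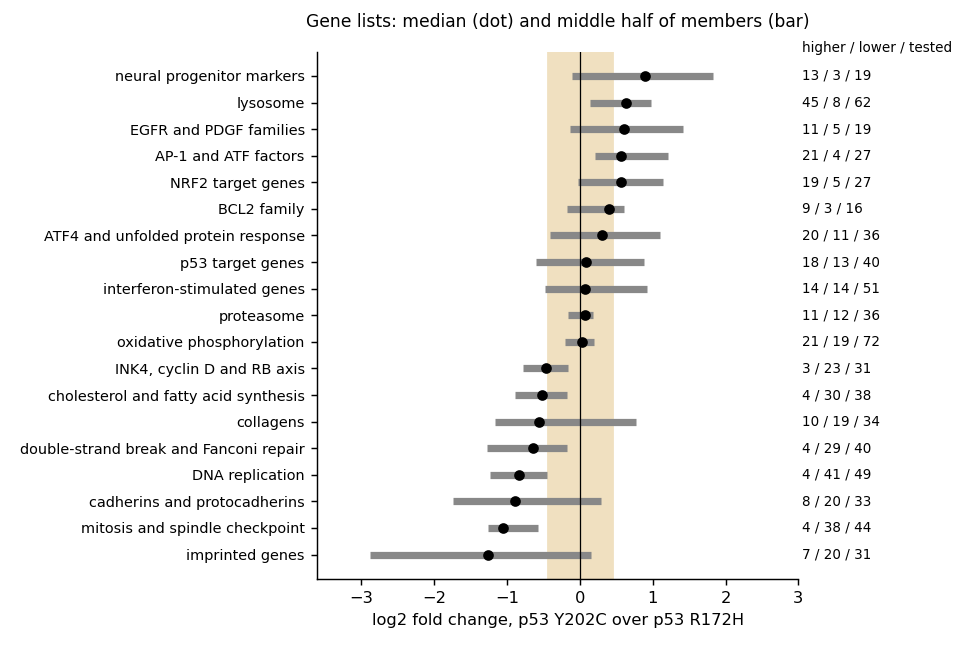
Median (dot) and middle 50% (bar) of log2 fold changes, p53 Y202C over p53 R172H, for 19 gene lists, with the middle 50% of all tested genes shaded and the numbers of members higher, lower and tested at right. Mitosis (38 of 44 lower) and DNA replication (41 of 49 lower) lie to the left, and lysosome (45 of 62 higher) and AP-1 and ATF factors (21 of 27 higher) to the right.

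NRF2 target genes, which detoxify and supply reducing power, were higher in 19 of 27 tested members (70.4%) and lower in 5 (18.5%), with a median of 0.56. Mgst1, a membrane glutathione transferase gene, was at 16.3, 20.2 and 17.4 CPM in p53 Y202C and at 0.407, 0.243 and 0.229 CPM in p53 R172H. Abcc4, an export pump gene, was at 74.8, 75.8 and 75.7 CPM against 6.4, 6.83 and 6.04 CPM. The heme oxygenase gene Hmox1 was at 2.02-fold of its p53 R172H level, and Aldh3a1 rose by 4.70 on the log2 scale from 0.179 CPM. AP-1 and ATF factors were higher in 21 of 27 tested members (77.8%) and lower in 4 (14.8%), with a median of 0.57, and Fosb was 3.94-fold higher. Fos and Mycn were the exceptions with large values. Fos was at 12.8, 12.4 and 12 CPM in p53 Y202C and at 37.4, 53 and 47 CPM in p53 R172H. Mycn, a MYC family gene that the list also held, was 10.7-fold lower.

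Among growth factor genes, Igfbp3, which binds insulin-like growth factors in the medium, was at 124, 147 and 132 CPM in p53 Y202C and at 0.126, 0.320 and 0.280 CPM in p53 R172H, with 24.8 CPM in the KO line. Its log2 fold change was 9.17 ± 0.21 (SE, adjusted p = 4.57e-21). Pdgfb, a PDGF ligand gene, was at 86.2, 81.8 and 72.1 CPM against 3.34, 3.25 and 3.57 CPM, and Pdgfd was 6.74-fold higher. The EGF family ligand genes Nrg2 and Btc were 7.4-fold and 3.63-fold higher. Over the EGFR and PDGF families 11 of 19 tested members were higher (57.9%) and 5 lower (26.3%). Other growth factors and receptors had 13 of 34 tested members higher (38.2%) and 19 lower (55.9%).

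Among FGF genes, Fgf2 was at 3.89, 3.62 and 3.77 CPM in p53 Y202C and at 1.23, 1.23 and 1.21 CPM in p53 R172H, 3.07-fold higher, and Nudt6, which overlaps it on the other strand, was 2.87-fold higher. Fgf9 and the feedback inhibitor gene Spry4 were 6.47-fold and 3.62-fold higher, and Fgf18 was 4.84-fold lower. The list had 10 of 24 tested members higher and 6 lower.

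BMP antagonists differed in opposite directions. Grem1, which sequesters BMP ligands, was at 183, 193 and 204 CPM in p53 Y202C and at 1.86, 2.40 and 2.01 CPM in p53 R172H. Nog, another antagonist gene, had 0 counts in each p53 Y202C library and 0.639, 0.628 and 0.586 CPM in p53 R172H, at least 15.9-fold higher in the latter. The BMP ligand gene Gdf6 rose by 6.97 and Id4, a BMP-responsive gene of neural progenitors, by 2.96 on the log2 scale. Over the TGF-beta and BMP list, 19 of 50 tested members were higher and 24 lower. These shares, 38.0% and 48.0%, compare with 36.9% and 34.4% of all genes.

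Wnt pathway genes were higher in 15 of 49 tested members (30.6%) and lower in 24 (49.0%), beside 36.9% and 34.4% of all genes. Wnt5a, a ligand of the non-canonical pathway, was at 27.8, 26.6 and 26.6 CPM in p53 Y202C and at 18, 16.2 and 17.2 CPM in p53 R172H, 1.57-fold higher (adjusted p = 5.98e-09), while the KO line had 34.7 CPM. The inhibitor gene Sfrp2 fell by 4.14 and the inhibitor gene Wif1 rose by 3.42 on the log2 scale. Wnt7a was at 3.35, 3.01 and 2.35 CPM in p53 Y202C and at 0.0581, 0.0640 and 0.548 CPM in p53 R172H. The ligand gene Wnt2 was 4.99-fold lower. Of 21 tested Notch genes, 7 were higher (33.3%) and 9 lower (42.9%). Hey1 and Nrarp, both induced by Notch, were 6.72-fold and 6.99-fold higher, and the non-canonical ligand genes Dlk1 and Dlk2 were 6.76-fold and 7.69-fold lower.

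Axon guidance genes, which also direct glial migration, were higher in 16 of 59 tested members (27.1%) and lower in 28 (47.5%). Nrp2, a semaphorin and VEGF co-receptor gene, was at 196, 184 and 203 CPM in p53 Y202C and at 27.9, 29.2 and 31.0 CPM in p53 R172H. The netrin receptor gene Unc5c was at 3.47, 3.52 and 3.86 CPM against 48.7, 46.0 and 42.5 CPM. Among YAP and TEAD targets, 16 of 34 were higher (47.1%) and 12 lower (35.3%), with Ankrd1 3.54-fold higher and Thbs1, already described, lower.

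Immune genes were found in both directions. Nlrp2, a NOD-like receptor gene, was at 38.2, 38.7 and 42.5 CPM in p53 Y202C and had 0 counts in each p53 R172H library, at least 1130-fold higher. Sucnr1, the succinate receptor gene, was at least 928-fold higher. The complement gene C3, a marker of reactive astrocytes, was at 25.6, 24.2 and 21.6 CPM against 1.45, 1.92 and 1.21 CPM, and the copper oxidase gene Cp was 10.0-fold higher. Reactive astrocyte and acute-phase genes had 14 of 41 tested members higher (34.1%) and 18 lower (43.9%). Cytokines, chemokines and their receptors had 14 of 37 higher (37.8%) and 15 lower (40.5%). Over all genes the shares were 36.9% and 34.4%. The chemokine gene Cxcl12 was 3.77-fold lower, at 127 ± 4.23 against 478 ± 27.5 CPM (SD, n = 3), and the orphan chemokine gene Cxcl14 was 23.5-fold higher. The receptor of Cxcl12, Cxcr4, had 53, 56 and 31 counts in p53 Y202C and 1, 0 and 0 counts in p53 R172H.

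Classical MHC class I gene H2-K1 was at 161, 162 and 146 CPM in p53 Y202C and at 26.6, 30.9 and 31.5 CPM in p53 R172H. The checkpoint ligand gene Cd274 and the NK ligand gene Pvr were 5.82-fold and 5.45-fold higher. The MHC and antigen processing list nonetheless had 9 of 23 tested members higher (39.1%) and 11 lower (47.8%). MHC genes share reads with near-identical relatives, so single-gene values such as H2-Q4 are uncertain. Interferon-stimulated genes had 14 members higher and 14 lower of 51 tested, 27.5% each way against 36.9% and 34.4% of all genes. The GTPase gene Irgm1 and the factor gene Irf1 were 6.47-fold and 4.08-fold lower, and Bst2 and Usp18 were 3.93-fold and 4.63-fold higher.

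Of 38 cholesterol and fatty acid synthesis genes, 30 were lower (78.9%) and 4 higher (10.5%), with a median of −0.52. Hmgcs1, the synthase before the rate-limiting step, was at 80.7, 78.5 and 86.7 CPM in p53 Y202C and at 180, 209 and 197 CPM in p53 R172H. Stard4, a sterol carrier gene, and Elovl6, a fatty acid elongase gene, were 2.56-fold and 2.34-fold lower. Glycolysis and hypoxia genes had 10 of 39 members higher (25.6%) and 19 lower (48.7%). Ndrg1 was 6.36-fold and Car9 3.80-fold higher, but the oxygen sensor gene Egln3 was 9.14-fold lower. Oxidative phosphorylation genes had 21 of 72 higher and 19 lower around a median of 0.02. Proteasome genes had 11 of 36 higher and 12 lower around 0.07. The shares, 29.2% and 26.4% for oxidative phosphorylation and 30.6% and 33.3% for the proteasome, were below the 36.9% and 34.4% of all genes.

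Imprinted genes, expressed from 1 parental allele, were lower in 20 of 31 tested members (64.5%) and higher in 7 (22.6%), with a median of −1.26. Of the 20, 18 were more than 2-fold lower, 58.1% of the tested members beside 10.5% of all genes. Peg3, a paternally expressed zinc finger gene, was at 6.68 ± 1.26 CPM in p53 Y202C and at 162 ± 13.2 CPM in p53 R172H (SD, n = 3), with 141 CPM in the KO line. Ndn, necdin, was at 0.300, 0.379 and 0.519 CPM against 27.2, 26.6 and 28.4 CPM. Grb10, an inhibitor of insulin receptor signalling, was at 49.3, 45.4 and 54.6 CPM against 314, 313 and 328 CPM. No p53 Y202C library reached the p53 R172H range in any of the 3 genes. Zim1, a neighbour of Peg3 on chromosome 7, and Zdbf2 fell, with log2 fold changes of −5.13 and −3.24.

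Position along the genome was examined because both lines had been passaged without endogenous p53. Chromosome 4 had the highest median of the autosomes, 0.38, with 545 of its 938 genes higher and 178 lower. Its 14 windows of 10 Mb with at least 20 genes all had medians above 0, from 0.15 to 0.57. The chromosome median was 0.39, 0.40 and 0.38 in the 3 p53 Y202C libraries taken singly against the p53 R172H mean, and it was 0.28 for p53 Y202C over KO and −0.12 for p53 R172H over KO. Chromosome 6 was the lowest autosome at −0.25, with all 13 windows below 0. Chromosome 2 stood at 0.19 with 17 of 18 windows above 0, chromosome 19 at 0.17 with 6 of 6, and chromosome 11 at −0.14 with 0 of 13. DNA copy number was not analysed here, and its part in these medians was not tested.

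Several genes named above lie on the shifted chromosomes. The 3 oxidative phosphorylation genes with the largest rises, Ndufs5 (log2 fold change 1.08), Ndufb6 (0.88) and Sdhb (0.86), are on chromosome 4, and Ndufa4, with the largest fall of that list (−0.77), is on chromosome 6. Atp6v1g1 and Atp6v0b of the lysosomal list are on chromosome 4 as well. Their changes of 2.08 and 1.72 exceeded the chromosome median of 0.38.

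Of the 7 tested genes on the Y chromosome, 4 were lower and 2 were higher in p53 Y202C, and the 4 are widely expressed genes of its male-specific region. Kdm5d, a histone demethylase gene, was at 6.10, 5.99 and 6.53 CPM in p53 Y202C and at 24.9, 28.4 and 24.6 CPM in p53 R172H. Uty, Ddx3y and Eif2s3y were 3.62-fold, 3.01-fold and 3.15-fold lower. All 4 fell (adjusted p from 5.55e-13 to 2.42e-11), and the KO line (27.5 CPM for Kdm5d) lay with p53 R172H. Of the 9 Y-linked genes listed, the other 5, Usp9y, Zfy1, Zfy2, Sry and Uba1y, were not analysed here. Xist, which silences an X chromosome in female cells, was at most 0.257 CPM in the 6 libraries. Of the genes the study picked from exome data, Thap1 was at 11.4 against 10.1 CPM (adjusted p = 0.0352), a call lost under 9 of the alternative settings, and Calcoco2 and Rbmy were not analysed here. Eda was at 1.33 against 1.36 CPM (adjusted p = 0.925), and Agtr2 had 0 counts in both lines, which allows at most 3 counts per library.

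**Figure D5:**
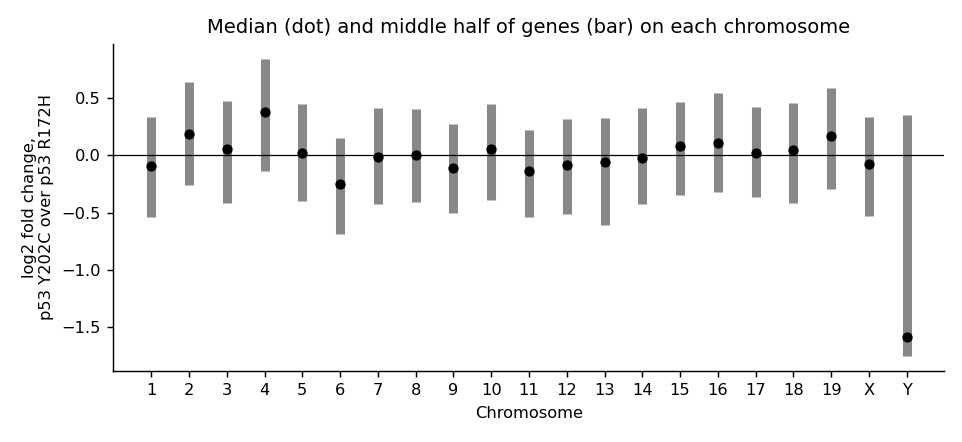
Median (dot) and middle 50% (bar) of log2 fold changes, p53 Y202C over p53 R172H, of the tested genes on each chromosome. Chromosome 4 is highest at 0.38, chromosome 6 is the lowest autosome at −0.25, and the Y chromosome, with 7 genes, is at −1.59.

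The same contrast was available in the female culture, from libraries not shared with the males, and the difference between the 2 effects was tested as an interaction. It passed for 9881 genes, 68.5% of those tested. In females 8589 genes passed between p53 Y202C and p53 R172H. Of the 6532 genes called in both sexes, 63.4% of the male and 76.1% of the female calls, 2883 (44.1%) had the same direction and 3649 the opposite. Across genes, which are not independent replicates, the correlation of the 2 log2 fold changes was −0.09.

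Trp53 was not matched in females, where the log2 fold change was −1.72, while the male pair had been chosen for its match, so that the difference between sexes of 1.74 is given as a description. The other genes put to the interaction test here were chosen for the largest rises and falls in males, which by itself favours a difference from females. Nlrp2 and Sall1, which had 0 counts in male p53 R172H, were at −3.39 and −4.22 in females. Of the genes that fell in males, Rbm46, Aass and Ptprz1 were at 0.56, 2.09 and 0.81 in females, and Megf6 and Rgs4 were at −1.37 and −1.96, smaller falls than in males. The differences of these 7 genes passed the interaction test. Those of Sucnr1, Sall3 and Pou3f2 did not in edgeR, where the female p53 R172H libraries held 0 counts. For Sucnr1 and Sall3 the differences, 14.48 and 14.16, equalled the male log2 fold changes. With empty libraries this test cannot show whether the sexes differed for Sucnr1, Sall3 and Pou3f2. Sox2 rose by 6.33 in males and fell by 6.33 on the log2 scale in females. The medians of chromosomes 4 and 6, 0.38 and −0.25 in males, were −0.31 and 0.18 in females.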

How the data were processed

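Total RNA of 24 libraries was made from cultured astrocyte lines, and polyA RNA was amplified with a SMARTer kit before sequencing. The authors aligned reads with STAR to the Ensembl 76 mouse annotation (GRCm38) and deposited 1 table of raw counts per gene from featureCounts. The strand setting of the counting is not given in the sources used here. Every gene in the table passed more than 1 CPM in at least 2 libraries, so this filter removed none.

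From these counts, edgeR 4.0.16 (R 4.3.3) was run with TMM factors over all 24 libraries, 1 mean per line (8 lines) and the quasi-likelihood test of p53 Y202C against p53 R172H in males. p-values were adjusted by Benjamini-Hochberg over all 14427 genes and called at 0.05, with a further rule of more than 2-fold. The common biological coefficient of variation was 0.0806. p-values measure only the spread between thaws and platings of 1 line. Groups came from the labels, the interaction with sex used the same fit, and coordinates came from GENCODE, with promoters from RefSeq, GRCm38.p6.

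The genes and lists were chosen with earlier results of these data known. Genes were named if they were Trp53, among the 12 largest rises or falls whose higher line had no library under 200 counts, among the 8 largest with a mean of at least 200 CPM, up to 4 members per list by size of change, cell type markers, genes with at most 3 counts in every library of one line and at least 100 in the other (up to 5 each way), or genes the study followed up. Mdm2, Cdkn1a, Bax, Bbc3, Sesn2, Ccnd1, Rb1, Cdkn2a, Cdkn2b, Mki67, Espl1, Gins3, Ctsa, Gla, Vldlr, Chac1, Hmox1, Tfeb, Cxcr4 and other genes outside this rule were chosen after their values were seen. A line with 0 counts was given a limit of 3 counts per library. Alternatives were DESeq2 1.42.0, limma-voom 3.58.1, upper-quartile factors, other filters, fewer libraries in the fit, a replicate block and leaving out each library. Some genes that the rule names are not reported here.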

Additional observations from a re-analysis of the deposited data

Results flagged for a closer look

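The effect of p53 Y202C against p53 R172H was compared between the male and female cultures by the interaction test in edgeR for 11 named genes. The test passed for 8 of the 11, against 68.5% of all genes. All but Trp53 were chosen for the largest rises and falls in males, and this choice by itself favours a difference from females. The count is therefore not a result about these genes, and the cause was not tested. For Trp53 the male minus female difference of log2 effects was 1.74, a description only, since the male pair was chosen for similar Trp53 levels. For Nlrp2 it was 18.16 (adjusted p = 3.27e-20) and for Sall1 18.83 (adjusted p = 3.72e-07), genes with 0 counts in the male p53 R172H libraries, so that these sizes depend on the fit. For Rbm46 the difference was −9.74 (adjusted p = 8.9e-06) and for Aass −11.05 (adjusted p = 2.45e-15), genes at or near 0 in male p53 Y202C. For Ptprz1 it was −9.21 (adjusted p = 8.43e-22), for Megf6 −6.42 (adjusted p = 8.6e-15) and for Rgs4 −4.25 (adjusted p = 1.35e-12). Groups of 3 libraries were too small for a check of single libraries that stand apart.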

How the results depend on the processing

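The count of genes past the threshold stayed between 9096 (adjusted p of 0.01) and 10402 (DESeq2), and between 9818 and 9974 when 1 library was left out. Upper-quartile factors gave 4696 higher and 5676 lower genes and moved the median of all genes to −0.07. The log2 fold change of Trp53 turned sign at −0.0551 with upper-quartile factors, −0.000697 with only the 6 libraries, −6.98e-06 with only the 12 male libraries and −0.000965 with a replicate block on the 6 libraries. Leaving out 1 library gave −0.0148 to 0.0430 for Trp53 and −0.15 to 0.0691 for Eda, which was positive without p53 Y202C replicate 2 (0.0691), p53 R172H replicate 1 (0.0646) or p53 R172H replicate 2 (0.0274). Thap1, at 0.10 (adjusted p = 0.227) with upper-quartile factors, lost its call in 9 settings. Of 63 chromosome medians recomputed, 33 moved. With upper-quartile factors they were 0.31 for chromosome 4, −0.33 for 6, 0.11 for 2, 0.09 for 19 and −0.22 for 11, and for genes at 10 CPM or more 0.52, −0.22, 0.25, 0.18 and −0.13, so these 5 kept their sign, but 0.09 for chromosome 19 was well under its 0.17.

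Same-numbered libraries of the 2 lines deviated together with correlations of 0.0654, 0.0677 and 0.104, so they were taken to share only a number, although each library correlated best with its own number, a hint from the data and not the design. The replicate block called 10202 genes, 5278 higher and 4924 lower. The interaction of Sucnr1, Sall3 and Pou3f2 with sex, not past the threshold in edgeR, passed in DESeq2 and limma-voom. Genes with few counts in one line are limited by counting error, and the cause of these changes was not tested.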
